A study of Mus musculus with 12 samples.

Results

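The genes described here are 37 interferon-stimulated genes, which cells switch on when an interferon binds its receptor. They were taken by name and placed on the mouse genome (build mm10), and all 37 were found. They stand among 21889 genes, namely the 21887 protein-coding genes of the annotation plus Mx1 and Mx2, which RefSeq annotates in this mouse strain as transcribed pseudogenes. By subfamily there were 3 Ifit genes, 5 Oas genes, 7 GTPases, 5 sensors of nucleic acid, 3 transcription factors, 3 genes of the ISG15 pathway and 11 other effectors.

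The cells came from bone marrow of C57BL/6 mice and were lineage-negative and cKit-positive, a fraction rich in blood stem and progenitor cells. The knockout (KO) mice, KO_399 and KO_401, were Mx1Cre+ and Ints11 flox/flox, and Ints11 encodes the catalytic subunit of the RNA-cleaving Integrator complex. The wild-type (WT) mice, WT_407 and WT_409, were littermates, and the labels do not say whether they carried Mx1Cre. Both genotypes had received poly(I:C), and cells were collected 4 days later. No group without poly(I:C) was analysed, so the values say nothing of how far the injection itself changed a gene. Mx1Cre is a Cre recombinase under the promoter of Mx1, itself one of the 37 genes, and acts in every cell type that responds to interferon. The 8 libraries with peak lists measured H3K4me3, the histone mark of active or poised promoters, and H3K27me3, the mark of Polycomb silencing, in 4 libraries each. Each number in a library's name was read as 1 mouse.

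Poly(I:C) imitates viral double-stranded RNA. Sensors such as Ifih1 detect it and cause type I interferon to be made, the interferon receptor activates the kinases Jak1 and Tyk2, and a complex that contains Stat2 and Irf9 then enters the nucleus. That complex binds the interferon-stimulated response element (ISRE) in the promoters of its targets. In bone marrow, type I interferon is known to push resting stem cells into division, and a pulse of it is what induces the Mx1 promoter in Mx1Cre mice.

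The element is shown here in 6 promoters chosen from the genes that hold it. The sequences are the 160 bases before the start site from RefSeq (GRCm38.p6, the coordinates of mm10), read 5′ to 3′ on the strand of the gene, and the capitals mark matches to GAAANNGAAA on either strand, where N is any base. Ifit1, Ifit3, Rsad2, Oas1a and Isg15 are shown because their H3K4me3 peaks were far shorter in one WT mouse than in the other, and Irgm1 because its peak differed little. Ifi44, Oasl1 and Ifit2, whose peaks were also far shorter in that mouse, have no such match in the window searched.
Ifit1 (chr19:34640729-34640888, plus strand): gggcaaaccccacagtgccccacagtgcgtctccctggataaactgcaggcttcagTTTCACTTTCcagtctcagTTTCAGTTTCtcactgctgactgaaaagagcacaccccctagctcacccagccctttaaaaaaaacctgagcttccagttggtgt
Ifit3 (chr19:34583369-34583528, plus strand): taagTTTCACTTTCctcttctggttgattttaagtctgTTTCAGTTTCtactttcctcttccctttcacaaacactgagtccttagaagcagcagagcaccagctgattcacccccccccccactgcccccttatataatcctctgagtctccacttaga
Rsad2 (chr12:26456453-26456612, minus strand): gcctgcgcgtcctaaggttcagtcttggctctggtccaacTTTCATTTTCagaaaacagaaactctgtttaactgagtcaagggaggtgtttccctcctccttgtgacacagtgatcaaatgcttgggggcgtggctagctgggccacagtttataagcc
Oas1a (chr5:120907526-120907685, minus strand): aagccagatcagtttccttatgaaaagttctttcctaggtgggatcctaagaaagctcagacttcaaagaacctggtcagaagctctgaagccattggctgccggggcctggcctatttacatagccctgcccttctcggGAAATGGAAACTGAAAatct
Isg15 (chr4:156200819-156200978, minus strand): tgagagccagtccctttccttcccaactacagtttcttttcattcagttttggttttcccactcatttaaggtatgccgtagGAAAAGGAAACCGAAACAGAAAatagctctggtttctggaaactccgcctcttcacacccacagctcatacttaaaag
Irgm1 (chr11:48871421-48871580, minus strand): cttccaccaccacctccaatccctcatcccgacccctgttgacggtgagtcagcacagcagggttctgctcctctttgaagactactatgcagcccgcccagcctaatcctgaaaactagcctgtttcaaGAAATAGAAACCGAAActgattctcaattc

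The promoter table held 27 of the 37 genes. Entries were missing for Oas2, Mx1, Mx2, Dhx58, Zbp1, Usp18, Ifi27l2a, Ly6e, Parp14 and Rtp4. From 250 bases before to 50 bases after the start, 16 of the 27 (59.3%) held GAAANNGAAA on either strand, against 689 of 17492 genes (3.94%). Overlapping matches were counted separately, as in Isg15, where 3 matches run into each other, and 7 of the 16 genes held 2 or more. The palindromic motif TTCNNNGAA, the core of the element that interferon gamma acts through, was in 6 of 27 (22.2%) and in 8.92% of all genes. In Bst2 the 2 motifs shared 3 bases. A match is a description of the letters in the window and no evidence of binding.

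Lengths are given as covered bases, the number of bases under peaks of a library from 5 kb before to 5 kb after the gene. One library, WT_409, stood apart from the others at these genes, and values without it are given with the counts. Lists of 4 values are in the order WT_407, WT_409, KO_399 and KO_401. In some library H3K4me3 was present at 37 of 37 genes, against 69.3% of all genes. It was at all 37 genes in WT_407, KO_399 and KO_401 and at 35 in WT_409. Genes with the mark in all 4 libraries thus numbered 35 of 37 (94.6%), against 92.7% of the 15169 genes with an H3K4me3 peak in any library. In strength the genes were spread widely. By −log10 q as deposited, the strongest peak of a gene had a median percentile within its own list of 74.6, 72.3, 77.1 and 73.7, and the lowest were 46.7, 26.8, 47.0 and 37.7. The strongest peak of a window need not be that of the gene, and 19 of the 37 windows reach another protein-coding gene. At Oasl1, Cxcl10 and Ifi35 it lay outside the gene in every library, and likewise at Oas3 in KO_399, at Usp18 in WT_409 and at Isg15 in WT_409 and KO_401. Stat2 and Irf7, both transcription factors of the pathway, and Parp14, an ADP-ribosyltransferase, were among the highest, with Parp14 at 99.5 in WT_407 and Stat2 at 99.2 in WT_409. Ifit3 was the lowest in WT_407 and WT_409, and Mx1 in KO_399 and KO_401.

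With 2 mice per genotype the two-sided exact permutation test over 6 labelings gives no p under 0.33, and adjusted over all 15169 genes the smallest value was 1. No single gene could therefore pass a test, and the counts below say whether both values of one genotype lay beyond both of the other. H3K4me3 covered more bases in each KO library than in either WT library at 13 of 37 genes (35.1%), against 22.1% of all genes with the mark. It was shorter in both KO libraries at none, against 3.63%. The widest peak was wider in both KO libraries at 15 genes (40.5%), against 23.6%, and narrower at none, against 4.06%. At 10 genes both measures separated the genotypes. A widest peak may run past the window, and a gene with several peaks can differ in one measure alone. At Ddx58 the widest peak had 2592, 2371, 3038 and 2613 bp, and at Irf7 it had 2486, 1929, 2928 and 2500 bp, so that KO_401 exceeded WT_407 by little at both. At Oasl2 it had 3821, 1611, 4019 and 3506 bp and overlapped between genotypes, although the covered bases did not. The median difference (KO minus WT) over the 37 genes was 983.5 bp, against 128.5 bp over all genes with the mark.

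The WT libraries were far apart at these genes, and how the count compared with the background depended on which of them was used. WT_409 was the shortest of the 4 libraries at 35 of 37 genes (94.6%), whereas it was the shortest at 25.2% of all genes with the mark. The exceptions were the sensor Ddx58 and the chemokine gene Cxcl10, where KO_401 was shortest, as it was at 34.2% of all genes. At 30 of 37 genes the WT libraries differed from each other by more than the genotype means did, against 57.0% of all genes. Leaving a library out can only keep or raise the count of genes longer in both KO libraries. Without WT_409, both KO libraries exceeded WT_407 at the same 13 genes, but 44.2% of all genes then did so. The median difference was then 256.5 bp, against 147 bp over all genes. Without WT_407 the count was 35 genes, against 37.9% of all genes, and without KO_401 it was 36, against 75.2%. Without WT_407 the median difference was 1584 bp, against 115.2 bp over all genes. It was 396 bp without KO_399, against -47.25 bp, and 1469 bp without KO_401, against 314.5 bp. A wider widest peak was counted at 36 genes without WT_407, against 39.8% of all genes, and at 36 without KO_401, against 74.1%. Without KO_399 the count of genes with longer H3K4me3 stayed at 13, against 23.9%, and KO_401 then lay below both WT libraries at 2 genes, Ddx58 and Cxcl10, against 35.7% of all genes. WT_407 lay between the KO libraries at 23 genes, a count for which no share over all genes was taken. It lay above both KO libraries at 1 gene, against 11.6% of all genes. That gene was Gbp3, which encodes a guanylate-binding protein.

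KO_399 was the longest library at 34 of 37 genes (91.9%), the exceptions being Oasl1, Gbp3 and Eif2ak2. It was also the longest at 72.4% of all genes with the mark. With each library divided by its own mean over all genes with the mark, 8 of the 37 separated upwards in KO, against 11.8% of all genes, and 0 downwards, against 18.5%. The median difference was then 609.3 bp, against -41.39 bp over all genes with the mark, and WT_409 was still the shortest at 35.

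**Figure D1:**
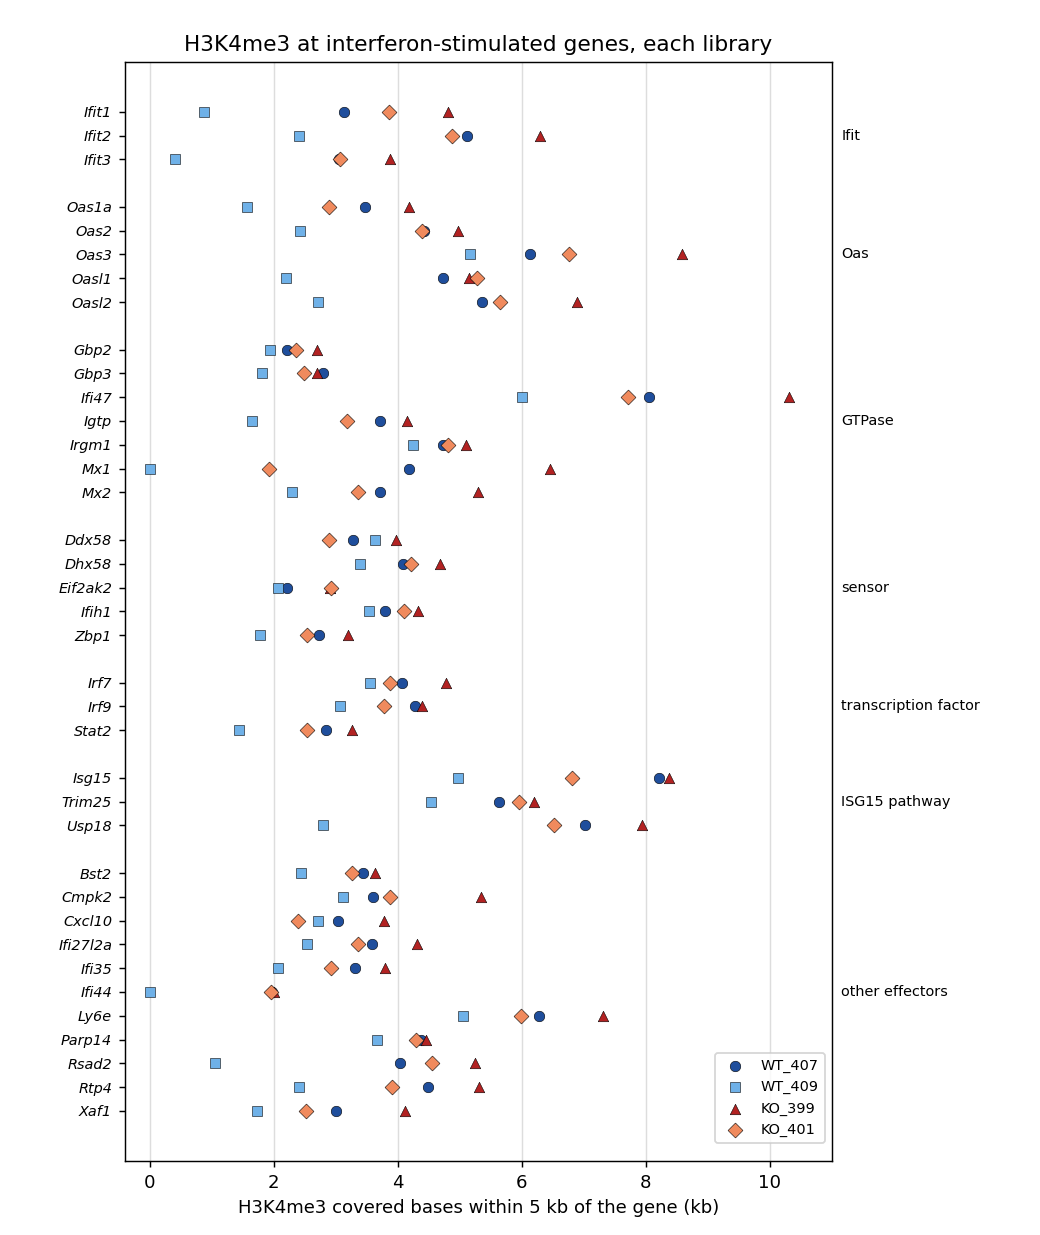
H3K4me3 covered bases (kb, horizontal axis) within 5 kb of each of the 37 genes, grouped by subfamily; each symbol is 1 library. The WT_409 squares lie farthest left at 35 genes, and the KO_399 triangles lie farthest right at 34.

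The Ifit proteins bind foreign RNA and block its translation, and their genes lie together on chromosome 19. Ifit1 (34640889 to 34650009) had 3127 bp (WT_407) and 881 bp (WT_409) of H3K4me3 in WT, against 4805 bp (KO_399) and 3865 bp (KO_401) in KO. Both KO values exceeded both WT values, with a WT mean of 2004 ± 1588 bp and a KO mean of 4335 ± 665 bp (SD over 2 mice each; p = 0.33 by exact permutation). Ifit3 had 3054, 415, 3872 and 3071 bp in the same order, so that KO_401 exceeded WT_407 by a few bases only. Ifit2, the longest of the 3, had 5115, 2410, 6294 and 4880 bp, and its genotypes overlapped. In all 3 genes WT_409 was apart from the other libraries, at 0.282, 0.136 and 0.471 of WT_407 for Ifit1, Ifit3 and Ifit2. The windows of Ifit1 and Ifit3 also reach Ifit1bl1, a gene of the same family, and reads of such similar copies cannot be placed with certainty.

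The Oas enzymes make short oligoadenylates that switch on the nuclease RNase L. Oas3 was the longest of the 5, with 6135 bp (WT_407) and 5163 bp (WT_409) in WT, against 8584 bp (KO_399) and 6768 bp (KO_401) in KO. Oas1a was the shortest, with 3465, 1577, 4181 and 2887 bp in the same order. Oas3 separated the genotypes and Oas1a did not, because KO_401 lay between the WT mice there. Oas2 and Oas3 share a peak in their windows, the only such pair among the 37 genes, and their values are not independent. Oasl1, a relative without the enzyme activity, had 4737, 2193, 5155 and 5284 bp. Oasl2 had 5362, 2718, 6883 and 5656 bp. At both genes WT_407 was closer to the KO libraries than to WT_409, and both KO values were the higher ones.

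Among the GTPases, which act on virus particles and on the vacuoles of pathogens, Ifi47 had the most H3K4me3, with 8058 bp (WT_407) and 6000 bp (WT_409) in WT, against 10300 bp (KO_399) and 7705 bp (KO_401) in KO. Gbp2 had the least, with 2209, 1936, 2696 and 2352 bp. Gbp2 and Irgm1, a regulator of the immunity-related GTPases, were the 2 of 7 that separated the genotypes. Irgm1 had 4726, 4241, 5093 and 4807 bp, and KO_401 exceeded WT_407 by less than the WT mice differed from each other. Igtp, another gene of that family, overlapped between genotypes, and WT_409 stood at 0.445 of WT_407 there.

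The sensors had the highest median ratio of WT_409 to WT_407 of the 7 subfamilies, 0.928. Ifih1 (MDA5), the receptor for long double-stranded RNA, had 3787 bp (WT_407) and 3533 bp (WT_409) in WT, against 4322 bp (KO_399) and 4105 bp (KO_401) in KO. Eif2ak2 (PKR), a kinase that stops translation when it binds double-stranded RNA, lies on chromosome 17 from 78850504 to 78882572 and had 2222, 2063, 2905 and 2923 bp. Dhx58 (LGP2), a helicase that modulates the other sensors, had 4081, 3398, 4673 and 4220 bp. All 3 were longer in both KO libraries. At Eif2ak2 the mice of a genotype lay close together, with means of 2142.5 ± 112 and 2914 ± 12.7 bp (SD over 2 mice each; p = 0.33 by exact permutation). The gap between genotypes there was as clear with WT_407 alone as with both WT mice. Ddx58 (RIG-I) and Zbp1, a sensor of Z-form nucleic acid, overlapped between genotypes. At Ddx58, on chromosome 4 from 40203777 to 40239825, KO_401 was lowest with 2885 bp and WT_409 had 3637 bp, above the 3276 bp of WT_407.

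None of the 3 transcription factors was longer in both KO libraries. Irf7, which amplifies interferon production, had 4071 bp (WT_407) and 3548 bp (WT_409) in WT, against 4777 bp (KO_399) and 3878 bp (KO_401) in KO. Stat2, a part of the complex that binds the ISRE, had 2849, 1443, 3263 and 2542 bp. KO_401 lay between the WT mice at both genes, and likewise at Irf9.

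Of the ISG15 pathway, Isg15 encodes a ubiquitin-like protein that is attached to other proteins. The gene lies on chromosome 4 from 156199424 to 156200818. It had 8214 bp (WT_407) and 4973 bp (WT_409) in WT, against 8368 bp (KO_399) and 6816 bp (KO_401) in KO. Usp18, which removes Isg15 from proteins and dampens the interferon receptor, had 7019, 2800, 7941 and 6516 bp. Trim25, a ubiquitin ligase that acts on RIG-I, had 5637, 4535, 6197 and 5949 bp. Trim25 alone of the 3 separated the genotypes. Windows at Isg15 also reach Agrn and Perm1, so part of its length may belong to these neighbours.

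Among the other effectors, Ly6e, a surface protein that affects virus entry, was the longest with 6273 bp (WT_407) and 5056 bp (WT_409) in WT, against 7316 bp (KO_399) and 5980 bp (KO_401) in KO. Ifi44 was the shortest, with 1977, 0, 2001 and 1964 bp. The other 3 libraries thus lay close together at Ifi44, and WT_409 had no listed peak. Rsad2 (viperin), an enzyme that makes a chain-terminating nucleotide, had 4034, 1046, 5248 and 4547 bp. Cmpk2, a nucleotide kinase that is the neighbour of Rsad2 on chromosome 12, had 3602, 3113, 5346 and 3870 bp. Rsad2 and Cmpk2 were the 2 of 11 effectors that were longer in both KO libraries. WT_409 stood at 0.259 of WT_407 at Rsad2 and at 0.864 at Cmpk2, so that these neighbours differed in how far apart the WT mice were. At Cxcl10, which encodes a chemokine that draws T cells, the values were 3032, 2715, 3782 and 2398 bp, and KO_401 was the lowest. Parp14 had 4373, 3670, 4455 and 4291 bp and Bst2 (tetherin), which holds budding viruses at the cell surface, had 3442, 2438, 3631 and 3255 bp. At these the other 3 libraries lay close together above WT_409. Xaf1 had 3010, 1730, 4109 and 2520 bp, with the libraries spread out in both genotypes. Of all 37 genes, 10 had a ratio of WT_409 to WT_407 of 0.5 or less, against 4.06% of all genes with the mark. They were Ifi44, Ifit1, Ifit2, Ifit3, Igtp, Mx1, Oas1a, Oasl1, Rsad2 and Usp18.

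The low values of WT_409 were not a feature of that list as a whole. Over all genes with the mark the median was 2378 bp (WT_407) and 2412 bp (WT_409) in WT, against 2743 bp (KO_399) and 2351 bp (KO_401) in KO, whereas over the 37 genes it was 3787, 2420, 4673 and 3865 bp. Markers of other cell types differed between libraries too. Means per gene for 10 B lymphoid markers were 1261.8 bp (WT_407) and 3619.1 bp (WT_409) in WT, against 2556.9 bp (KO_399) and 1417 bp (KO_401) in KO, with peaks at 7, 9, 8 and 7 of the genes. For 10 erythroid markers they were 1343.8, 2415.6, 1967.1 and 1399.4 bp, with peaks at 5, 9, 6 and 6 genes. For 10 mature myeloid markers they were 4221.2, 6609.9, 6156.8 and 5173.3 bp, with peaks at all 10 in each library. The 10 stem and progenitor markers, Kit and Cd34 among them, had peaks in every library and means of 6219.5, 6329.9, 8160.8 and 6707.7 bp. Blk and Alas2 had no peak in any library, nor had 6 of 10 T and NK markers, Cd3e, Cd8a, Ncr1, Klrb1c, Gzma and Bcl11b. Of 6 plasmacytoid dendritic markers, Siglech, Cox6a2 and Klk1 had none either. That list, which includes Bst2 of the 37 genes, had peaks at 2, 3, 2 and 2 genes. Its means were 2811.8, 2700.2, 3030.3 and 2676 bp. WT_409 thus had the highest mean for the B lymphoid, erythroid and mature myeloid lists and the lowest for the interferon-stimulated genes. Gene by gene it was the longest library at 7 of 10 B lymphoid, 7 of 10 erythroid and 4 of 10 mature myeloid markers, and the shortest at 1, 0 and 2 of them. It was the shortest at 5 of 10 stem and progenitor markers and the longest at 0. Over all genes with the mark, WT_409 was the shortest at 25.2%, and KO_399 was the longest at 72.4%. The part of cell makeup in the values of WT_409 was not tested. In a mixture of cells, fewer cells with the mark and less of the mark per cell cannot be told apart.

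**Figure D2:**
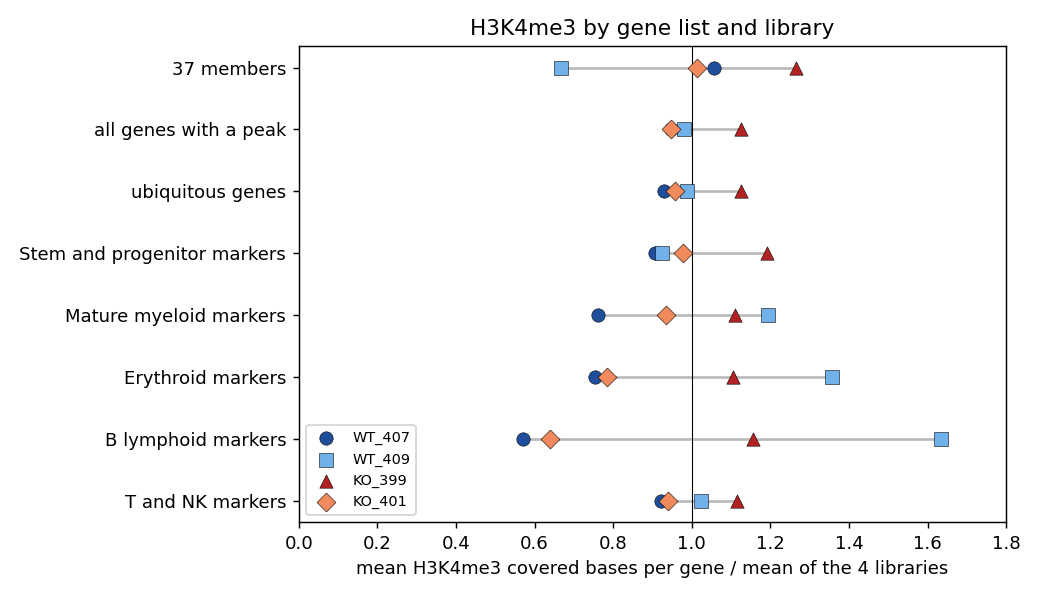
Mean H3K4me3 covered bases per gene of each list, divided by the mean of the 4 libraries (horizontal axis, a ratio); each symbol is 1 library. WT_409 is lowest for the 37 genes, near the others for all genes and for 10 ubiquitous genes, and highest for B lymphoid, erythroid and mature myeloid markers.

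Elsewhere in the pathway WT_409 had the lowest values at most targets of interferon. It was the shortest library at 26 of 29 further targets of interferon, the exceptions being Isg20, Sp100 and Ifi203. It was the shortest at 0 of 6 receptor genes, 3 of 10 kinases and transducers, 1 of 6 factors and 1 of 4 inhibitors, against 25.2% of all genes. Tap1 and Psmb8, both among the further targets, had the same widest peak of 3606, 3385, 3802 and 3356 bp. The further targets are thus not all independent. Ifnar1, a chain of the type I interferon receptor, had 2299 bp (WT_407) and 2318 bp (WT_409) in WT, against 2637 bp (KO_399) and 2382 bp (KO_401) in KO. Its partner chain Ifnar2, whose window also reaches Il10rb, had 6986, 7262, 8125 and 7608 bp. Both chains had more covered bases in both KO libraries. Ly6a (Sca-1), the stem cell surface marker that interferon induces, had 4062, 1804, 5946 and 3210 bp. By covered bases WT_409 was thus lowest at Ly6a, whereas at the receptor chains it was higher than WT_407. The widest peak gave another order at Ly6a and Ifnar2. At Ly6a it had 2736, 3171, 3736 and 3402 bp, running past the window in WT_409, and WT_407 was lowest. At Ifnar2 it had 3708, 3431, 3432 and 3286 bp, so that WT_407 was highest and the genotypes overlapped. Of the 3 interferon genes looked at, Ifnb1 and Ifng had no H3K4me3 peak in any library. The window of Ifnk, the other, had 2226, 2435, 2370 and 2214 bp.

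Of the 58 other genes of the pathway, 56 had H3K4me3 in some library, 22 of them were longer in both KO libraries and 1, the adaptor gene Mavs, was shorter. By class, 13 of 29 further targets, 2 of 6 receptors, 3 of 10 kinases and transducers, 2 of 6 factors and 2 of 4 inhibitors were longer, against 22.1% of all genes. The window of Ifit1bl1 differed most, but its annotated span, on chromosome 19 from 34592888 to 34662981, contains Ifit1 and Ifit3b and so counts their peaks. It had 6135 bp (WT_407) and 3034 bp (WT_409) in WT, against 13655 bp (KO_399) and 8623 bp (KO_401) in KO. B2m, the light chain of class I antigen presentation, had 9143, 6091, 11089 and 9145 bp, so that KO_401 exceeded WT_407 by a few bases. Socs3, an inhibitor of cytokine signalling, had 4306, 3397, 6859 and 4627 bp. Ifit3b had 2496, 452, 3419 and 2874 bp. The kinase gene Jak1 had 4983, 4477, 6406 and 5633 bp. Its values separated the genotypes with a narrow range in WT. Nlrc5, an activator of class I genes, had 3639, 2989, 4356 and 4772 bp, and Irgm2 had 4950, 3737, 5883 and 5199 bp. Oas1b and Oas1c had the same 3258, 1859, 3675 and 3420 bp, and their values are not independent.

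The start sites of the promoter table allowed the peak over the start to be divided into the part before and the part after it. In WT_407, KO_399 and KO_401 all 27 genes with a start site had an H3K4me3 peak over it, and in WT_409 25 had, without Ifi44 and Ifit3. At the 25 genes with such a peak in every library, the part after the start had a median of 2536 bp (WT_407) and 1175 bp (WT_409) in WT, against 2808 bp (KO_399) and 2192 bp (KO_401) in KO. Over the 9375 genes with such a peak in every library the medians were 1270, 1273, 1453 and 1277 bp. The part before the start had medians of 596, 543, 687 and 682 bp at the 25 genes and 693, 731, 784 and 694 bp over all. In 3 libraries the mark at these genes thus reached about as far before the start as elsewhere and farther after it, and in WT_409 it did not reach farther. WT_409 was the shortest after the start at 24 of 25 genes, against 31.8% of all, and before the start at 10 of 25, against 21.6%.

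By genotype, the part after the start was longer in both KO libraries at 13 of 25 genes, against 28.2% of all, and shorter at none, against 4.62%. The part before it was longer at 9 of 25, against 21.7%, and shorter at 1, against 8.18%. With WT_407 as the one WT library, the part after the start was longer in both KO libraries at 13 of 25 (52.0%), against 47.0% of all, and the part before it at 13 of 25, against 45.6%. At Isg15 the mark ran 4540 bp (WT_407) and 579 bp (WT_409) past the start in WT, against 4811 bp (KO_399) and 1851 bp (KO_401) in KO. Here the libraries differed within both genotypes. In WT_407 and KO_399 that peak ran past the far end of the gene. It took in the stretch where WT_409 and KO_401 had a separate peak outside the gene. The lengths at Isg15 thus depend in part on whether neighbouring peaks were joined. At Oasl1 the values were 3035, 632, 3479 and 2220 bp, and at Trim25 they were 4542, 2475, 4876 and 4892 bp. Ifih1, by contrast, had 3069, 2902, 3377 and 3396 bp, a long peak in all 4 libraries. Peaks were also called in pieces: at Ifit3 the peak over the start ended 404 bp past it in WT_407 and 408 bp in KO_401 but 2899 bp past it in KO_399, although the covered bases of the gene were 3054 and 3071 bp in WT_407 and KO_401.

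**Figure D3:**
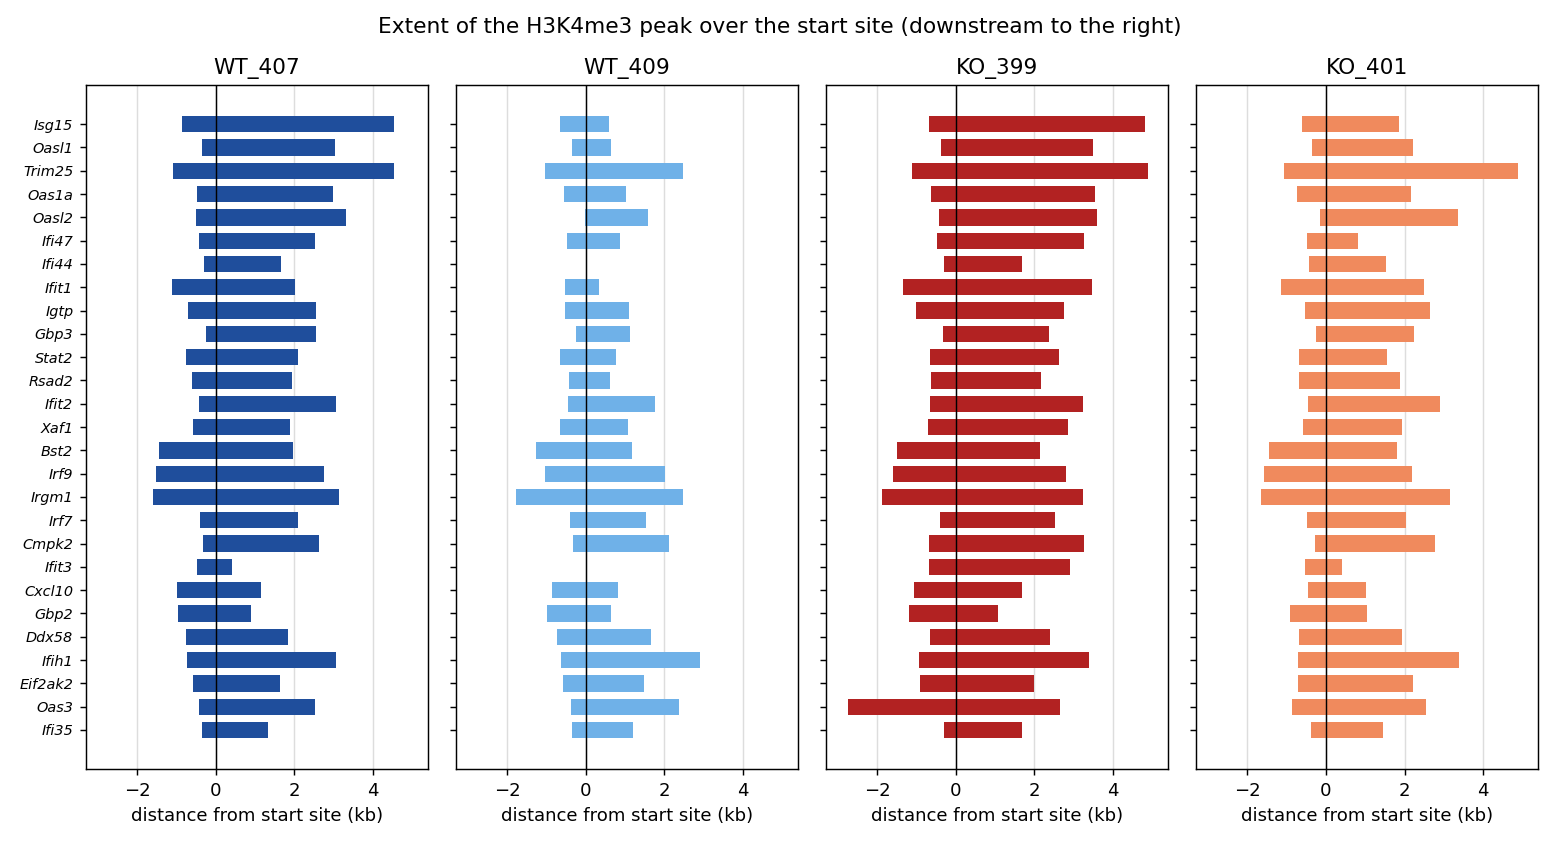
Extent of the H3K4me3 peak over the start site of 27 interferon-stimulated genes (horizontal axis, distance from the start in kb, downstream to the right), with 1 panel per library and genes ordered by the difference between WT_407 and WT_409 after the start. The bar of WT_409 reaches least far downstream at 24 of the 25 genes with a bar in every panel, and Ifi44 and Ifit3 have no bar there.

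The promoters shown above with ISRE matches include genes with large and small differences between the WT mice. At the 16 genes with a match the median ratio of WT_409 to WT_407 was 0.677 (range 0.136 to 1.11), and at the 11 without it was 0.624 (range 0 to 0.872). Presence of these letters in the window thus did not sort the genes by how low WT_409 was.

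Mx1, whose promoter drives the Cre, lies on chromosome 16 from 97447035 to 97462906. It had 4187 bp (WT_407) or no listed H3K4me3 (WT_409) in WT, against 6447 bp (KO_399) and 1929 bp (KO_401) in KO. The genotypes overlapped, and both KO values were obtained over a different background. From the deposited fold and p, the reads stacked at each summit and the background that the caller set against them were recovered. At the Mx1 summit the background was 2.23 reads in WT_407, 17.5 reads in KO_399 and 11.3 reads in KO_401, whereas the most frequent background of these libraries was 2.23, 2.65 and 1.93 reads. The ratio was thus 0.998 in WT_407, 6.61 in KO_399 and 5.87 in KO_401. At the strongest peaks of the other 36 genes (35 in WT_409) the ratio was at most 2.23, 2.12, 2.78 and 2.78. Counting Mx1 itself, backgrounds as high as at Mx1 were found at 10 of 27676 peaks in KO_399 and 11 of 25090 in KO_401.

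Because every deposited peak has a fold above 5, a summit at Mx1 needed about 91.6 reads to be listed in KO_399 and 60.6 in KO_401, against 15.1 in WT_407. The summits had 115 and 64 reads in KO_399 and KO_401 and 74 in WT_407. The length of H3K4me3 at Mx1 can therefore not be compared between genotypes from these lists. Whether transgene copies of the Mx1 promoter raised the background in the KO libraries was not tested, and WT_409 had no peak at Mx1 from which a background could be read. Mx2, its neighbour, had 3707 bp (WT_407) and 2288 bp (WT_409) in WT, against 5289 bp (KO_399) and 3365 bp (KO_401) in KO.

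**Figure D4:**
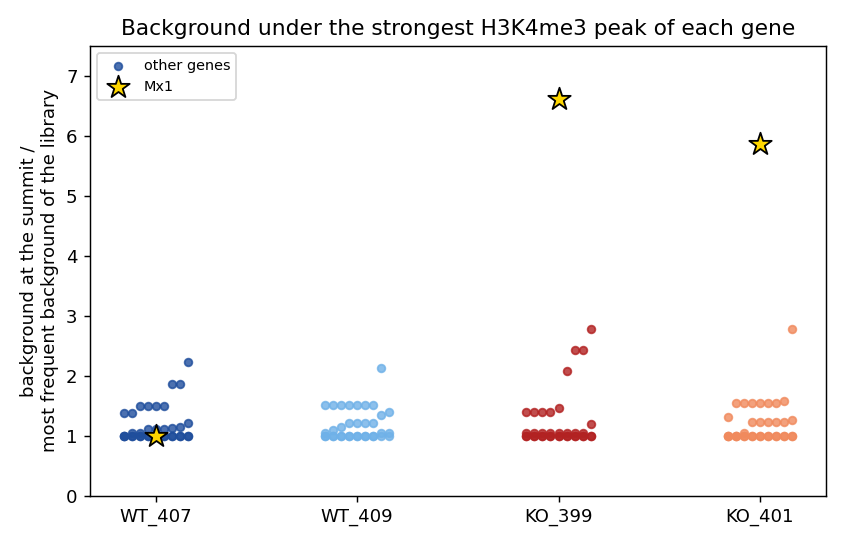
Background reads under the strongest H3K4me3 peak of each gene, divided by the most frequent background of the library (vertical axis, a ratio), for the 4 libraries; stars are Mx1 and dots the other genes. Mx1 is at 6.61 in KO_399 and 5.87 in KO_401, above every other gene, and at 0.998 in WT_407.

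H3K27me3 was nearly absent from these genes. Of the 37, 5 (13.5%) had an H3K27me3 peak within 5 kb in any library, against 29.8% of all genes, and 1 of the 5, Dhx58, had it in all 4 libraries, against 63.7% of all genes with the mark. No start site of the 27 genes with a start site in the promoter table lay under an H3K27me3 peak in any library. A share over all genes was not taken for that count, so it is a description only. Of the 5 genes, 3 were shorter in both KO libraries (Dhx58, Rtp4 and Xaf1), against 70.0% of the 6513 genes with the mark, and none was longer, against 0.0154%. The share of 3 of 5 (60.0%) was near that background. After scaling to the mean over all genes 1 of 5 was shorter, against 22.8%, and 0 longer, against 24.8%.

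The peaks lay at different places of the 5 genes. Xaf1, a gene that promotes cell death, had 2467 bp (WT_407), 2344 bp (WT_409), 0 bp (KO_399) and 2200 bp (KO_401). The peak touched the far end of the gene, began 11986 to 12053 bp from the start site and lay mostly beyond the gene. The window at Xaf1 also reaches Fbxo39. The KO_401 peak was thus nearly as long as those in WT. At Dhx58 the peak lay outside the gene, 1231 to 2256 bp from its lower end, in a window that also reaches Kat2a and Zfp385c, with 1753, 2132, 839 and 1623 bp. At Isg15 a peak lay beyond the far end of the gene, 3417 to 3645 bp from the start site, and had 549 bp (WT_407), 2355 bp (WT_409), 0 bp (KO_399) and 1095 bp (KO_401). It overlapped the strongest H3K4me3 peak of the window in those 3 libraries. WT_409 had an additional H3K27me3 peak of 3557 bp, 1417 bp before the start, giving it 5912 bp of covered bases in all.

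At Rtp4, which encodes a protein that restrains RNA viruses, the mark was listed in WT only, with 4701 bp in WT_407 and 805 bp in WT_409. The annotated span of Rtp4 is long, from 23520219 to 23614222 on chromosome 16, and these peaks lay across its lower end or in its lower part. The window also reaches another gene, Masp1, so the mark may belong to that neighbour. The strongest H3K4me3 peak of the gene was 64401 to 88509 bp away from them. The marks at Rtp4 were thus far apart, and its H3K4me3 had 4486, 2407, 5316 and 3905 bp of covered bases in WT_407, WT_409, KO_399 and KO_401. At Mx1, KO_401 alone had an H3K27me3 peak, of 2628 bp, over the upper end of the gene. Its summit had 107 reads over a background of 20.1 reads, 5.48 times the most frequent background of 3.67, and no other peak in that list had as high a background. That peak thus has the same limit as the H3K4me3 peaks of Mx1 in KO.

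**Figure D5:**
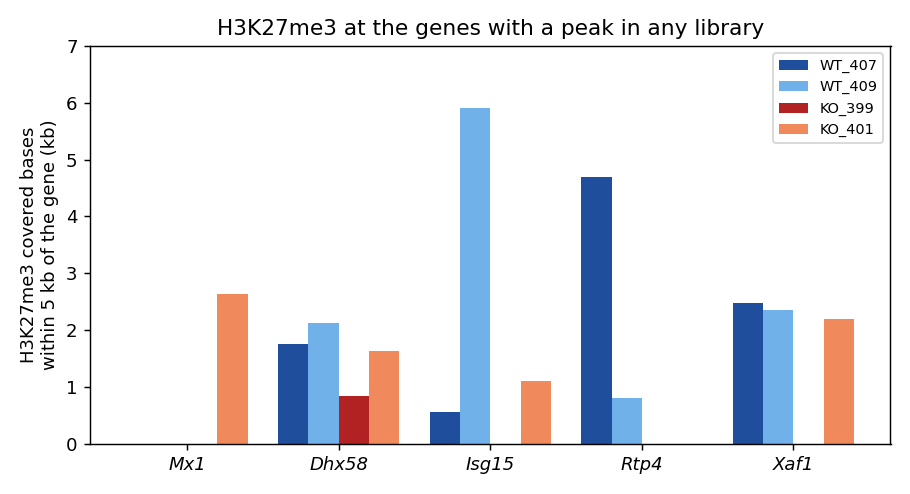
H3K27me3 covered bases (kb, vertical axis) within 5 kb of the 5 interferon-stimulated genes with a peak in any library; each bar is 1 library. KO_399 has a bar at Dhx58 only, and Rtp4 has bars in WT_407 and WT_409 only.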

How the data were processed

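The peak lists were made by the authors, 1 list per library. Tools named in the submitters' processing notes are MACS2, Bowtie2 and SAMtools, besides FastQC, deepTools and Trim Galore, with build mm10, and their versions are not given in the sources used here. The deposited columns are a whole-number score, a fold (a ratio of summit reads to background), and −log10 values of p and q. All deposited folds exceeded 5, so peaks under that fold are not listed. The 4 input libraries were not analysed here. Read totals are not part of the lists. Solving the fold and −log10 p together gave whole-number summit reads within 0.001 for 100% of summits, and a most frequent background of 1.93 to 2.65 reads for H3K4me3 and 3.09 to 3.67 for H3K27me3, so a fold of 5 needed 13.65 to 17.25 and 19.45 to 22.35 reads.

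The lists held 25090 to 27676 peaks for H3K4me3 and 6542 to 11930 for H3K27me3. Covered bases and the widest peak were computed per gene and library (minimum overlap 1 bp, 5 kb windows) with Python 3.11.15 and NumPy 2.4.6, from RefSeq spans and start sites (GRCm38.p6), after tests on simulated data. Where a gene had several start sites the outermost was used. Genotypes were compared by exact permutation and by whether both values of a genotype lay beyond the other. The separation of 2 against 2 libraries measures only the spread between these mice. Values in each library were given, by rule, for the 12 largest separations in each direction, every gene with H3K27me3, the longest and shortest of each subfamily, Mx1, genes lacking H3K4me3 in a library, and the most separated pathway genes with Ifnar1, Ifnar2 and Ly6a. A further gene of that rule is not reported here. The 37 genes, the lists and the tests were chosen with earlier results of these data known. The counts for WT_409, the parts before and after the start, the motifs, the distances and the summit backgrounds were added after seeing the data.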

Additional observations from a re-analysis of the deposited data

How the results depend on the processing

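The counts were recomputed with stricter peaks (fold of at least 10, −log10 q of at least 10), windows of 2 kb, 10 kb or the gene alone, the same number of peaks or covered length in each library, scaling to the mean over all genes, an overlap of at least 200 bp, and each library left out. The median difference kept its sign in every alternative, while a count could not reverse. Of 129 alternatives, 112 stayed within 1.5 times of the main count or within 794 bp of the median difference. That limit was 1 SD between libraries of a genotype in the median over the 37 genes. It was wide beside the 983.5 bp of the main run, so that the 256.5 bp without WT_409 still fell within it. The limit for counts leaves out the share over all genes. Without WT_409 the 13 genes with longer H3K4me3 (35.1%) counted as unchanged. The share over all genes was then 44.2%, against 22.1% in the main run, so the members went from above that share to below it. Scaling gave 8 genes with longer and 9 with wider H3K4me3 in both KO libraries, each against 11.8% of all genes. For H3K27me3, 1 gene was shorter in both KO libraries at a fold of at least 10 (66.6% of all genes), 0 with the same covered length (30.1%) and 1 after scaling (22.8%). The mark was at 3 genes in any library at a fold of at least 10, in the gene span alone and with the same covered length. Of all 21889 genes, it was at 4182, 5456 and 4341 in these settings, against 6513 in the main run. With 1 library left out, a count of genes that separate the genotypes can only stay or rise, so its lower end says nothing of stability. Longer H3K4me3 was then counted at 13 to 36 genes, against 23.9 to 75.2% of all genes. Shorter H3K4me3 was counted at 0 to 2, against 4.44 to 35.7%. A wider peak was counted at 15 to 36, against 25.7 to 74.1%, and a narrower one at 0 to 1, against 5.03 to 35.0%. Longer H3K27me3 was counted at 0 to 1, against 0.0923 to 3.13%. In the same refits the median difference of H3K4me3 over the 37 genes was 256.5 to 1584 bp. The count of genes shortest in WT_409 was 34 to 36 under every alternative run. No paired analysis was possible because the WT and KO libraries share no replicate number.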
